A study of Mus musculus with 8 samples.

Results

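Intercalated cell genes were examined in RNA-Seq counts of whole mouse kidneys, as 10 genes chosen by name out of the 55367 genes listed: the forkhead transcription factor gene *Foxi1*, the V-ATPase subunit genes *Atp6v1b1*, *Atp6v1c2*, *Atp6v1g3*, and *Atp6v0d2*, the type A genes *Slc4a1*, *Slc26a7*, and *Kit*, and the type B genes *Slc26a4* and *Slc4a9*. All 10 were found and all 10 passed the filter on low counts, which left 20149 genes for testing. The series holds 4 *c-Maf*ΔTAM mice (labelled Maf conditional KO), which carry floxed *c-Maf* and a tamoxifen-inducible Cre recombinase driven by the ubiquitous CAG promoter (*CAG-Cre-ERTM*), and 4 *c-Maf* fl/fl mice (labelled Maf flox/flox; the controls), which have the floxed gene but no Cre. All 8 were C57BL/6J mice given as 8 weeks of age, and both genotypes received tamoxifen. The promoter does not limit the deletion to the tubule or to intercalated cells, and Cre itself cannot be told apart from the loss of c-Maf. The sex of the mice is not given.

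Intercalated cells are the acid-base cells of the connecting tubule and collecting duct, where they lie among the principal cells that carry sodium and water. Type A cells secrete acid through a V-ATPase in the apical membrane and return bicarbonate to the blood through the basolateral chloride-bicarbonate exchanger AE1 (*Slc4a1*), whereas type B cells secrete bicarbonate through apical pendrin (*Slc26a4*). Foxi1 is required for their differentiation, and loss of the human V-ATPase subunit encoded by *ATP6V1B1* causes distal renal tubular acidosis with deafness. In a whole-kidney library, fewer intercalated cells and less RNA per intercalated cell cannot be told apart.

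Because Foxi1 binds forkhead sites and c-Maf binds Maf recognition elements (MAREs), the RefSeq promoters of the members (GRCm38.p6; windows of 300 bases, from 250 before the start to 50 after it) were searched on both strands for the forkhead letters TGTTTAC and TGTTTGC, the MARE core TGACTCA, and the shorter MARE part TGCTGA. Promoters were on hand for 6 of the 10 genes. The stretches of 250 bases upstream of the start are shown for *Foxi1* (chr11:34208090-34208339, minus strand) and *Atp6v1b1* (chr6:83742767-83743016, plus strand), the only members among these 6 with a match; capitals mark it.
Foxi1: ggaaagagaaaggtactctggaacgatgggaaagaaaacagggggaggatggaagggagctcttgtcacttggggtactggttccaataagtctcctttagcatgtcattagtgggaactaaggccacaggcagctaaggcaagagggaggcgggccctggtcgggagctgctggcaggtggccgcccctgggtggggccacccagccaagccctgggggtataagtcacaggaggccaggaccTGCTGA
Atp6v1b1: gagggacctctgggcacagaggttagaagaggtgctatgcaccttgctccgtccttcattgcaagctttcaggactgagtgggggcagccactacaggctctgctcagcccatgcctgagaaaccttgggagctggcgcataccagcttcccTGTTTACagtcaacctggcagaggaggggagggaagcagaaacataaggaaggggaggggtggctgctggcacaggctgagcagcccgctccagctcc
In *Foxi1*, TGCTGA occupied bases -6 to -1 before the start, and 19.5% of 32851 mouse promoter windows of 300 bases held these letters. In *Atp6v1b1*, TGTTTAC occupied bases -98 to -92, and 3.65% of the windows held it. TGTTTGC (5.07% of the windows) and TGACTCA (5.2%) occurred in 0 of the 6 members. A match describes these letters only and is not evidence of binding.

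Values per mouse are given in the order of the mouse numbers in the labels, *c-Maf*ΔTAM mice first. The libraries held 16649129 to 22990257 counts per mouse. *Maf*, the targeted gene, was at 9.06 to 34.5 CPM (counts relative to library size) in *c-Maf*ΔTAM mice and 305.4 to 379.9 CPM in controls (log2 fold change -4.05, SE 0.512, adjusted *P* = 0.0115 in edgeR's quasi-likelihood test), without overlap. Its adjusted *P* was 0.108 in the 5 mice with high *Xist* described next (-3.87) and 0.0516 with the replicate number as a block (-4.28). The female-specific transcript *Xist* was nearly absent from *c-Maf*ΔTAM mouse 1 (2 counts) and from controls 3 and 4 (6 and 22 counts), whereas the remaining 5 mice had 17618 to 22387 counts. Mitochondrial genes took 17.1% to 32.3% of the counts, with the highest share in *c-Maf*ΔTAM mouse 1. The labels name whole kidney as the tissue, and their extraction protocol speaks of liver. All 8 kidney genes of a marker list were tested, among them *Nphs1* of podocytes (21.9 to 36.8 CPM, the lowest of the 8) and *Umod* of the thick limb (1648 to 3196 CPM), and the phosphate transporter gene *Slc34a1* was called lower in *c-Maf*ΔTAM mice (-1.23, adjusted *P* = 0.000217). Of 8 liver genes, *Cps1* and *Tat* were at most 0.111 CPM, *Alb*, *Apoa2*, *Fgb*, and *Serpina1a* were between 0.661 and 14.5 CPM, and *Apob* was at 434.5 to 709.7 CPM. The liver gene *Ttr* was called lower in *c-Maf*ΔTAM mice, at 0.204 to 3.03 CPM against 31.5 to 67.8 CPM in controls (-5.02, adjusted *P* = 0.0152), a call lost when *c-Maf*ΔTAM mouse 3 (adjusted *P* = 0.0752) or mouse 4 (0.0505) was left out.

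The intercalated cell genes did not pass the test between genotypes in either direction. In edgeR's quasi-likelihood test, 0 of the 10 were called lower and 0 were called higher in *c-Maf*ΔTAM mice at a Benjamini-Hochberg adjusted *P* of 0.05, against 1.58% of all tested genes called lower and 0.586% called higher. None reached an unadjusted *P* under 0.05, as 14% of all tested genes did, and DESeq2, edgeR's exact test, and limma on quantile-normalized values also called 0 of the 10. Log2 fold changes (*c-Maf*ΔTAM over *c-Maf* fl/fl) ran from -0.23 in *Kit* to 0.19 in *Slc4a1*, with 7 below zero, 3 above zero, and a median of -0.037, beside a median of 0.00272 over all tested genes. Adjusted *P* values ran from 0.514 to 0.987. In all 10 genes the values of the genotypes overlapped. Of all tested genes, 9.79% had no overlap in either direction, a share too small to set 10 genes apart. The 95% confidence interval of the difference lay within a 1.5-fold change either way for 9 of the 10 genes. The exception was *Slc26a7*, the gene with the fewest counts.

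**Figure D1:**
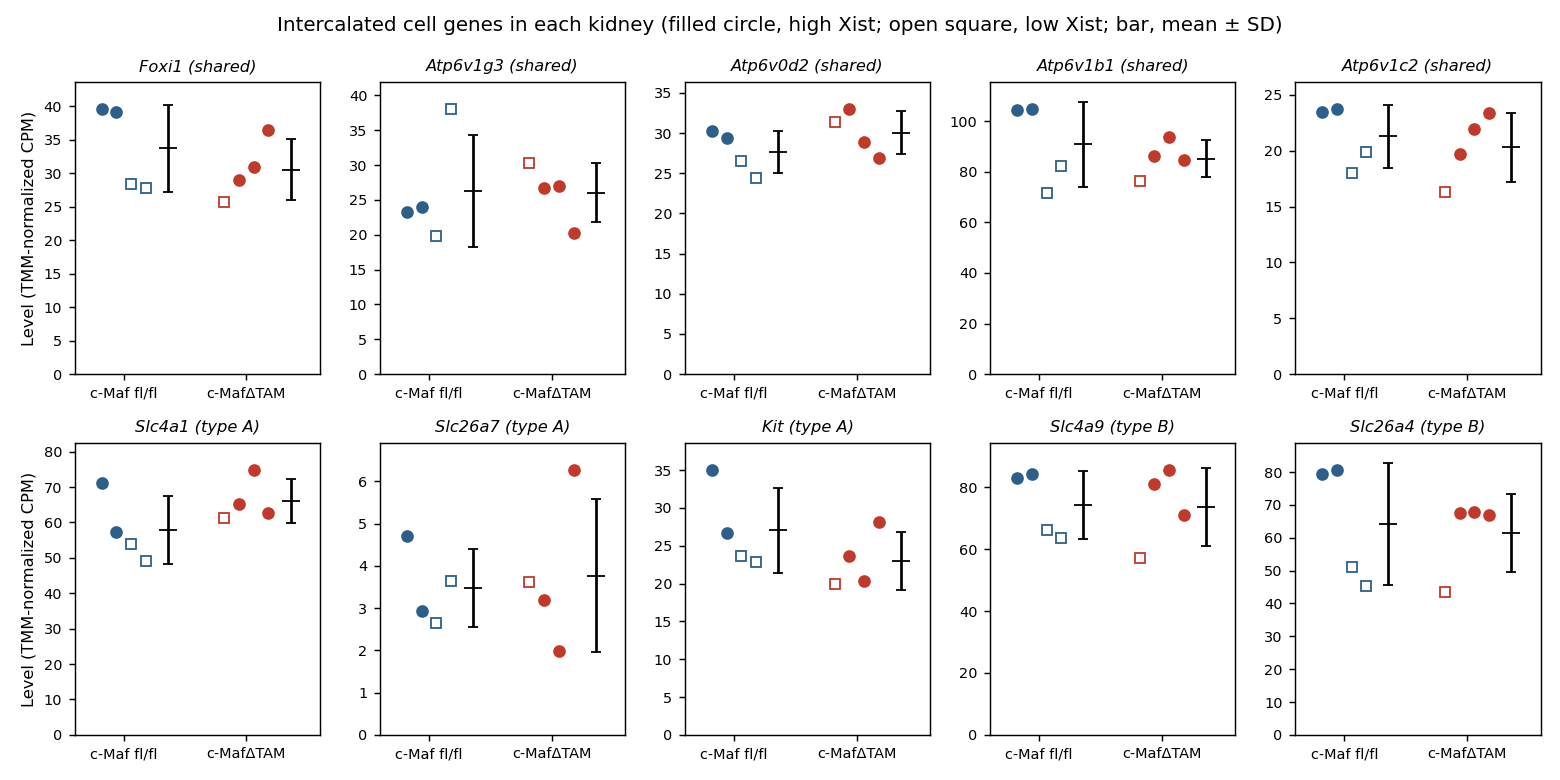
Level of each intercalated cell gene in each mouse, in TMM-normalized CPM, by genotype (blue, *c-Maf* fl/fl controls; red, *c-Maf*ΔTAM). Filled circles are the 5 mice with high *Xist*, open squares the 3 with low *Xist*, and bars the mean ± SD of 4 mice. The genotypes overlap in all 10 genes, and in *Slc26a4* the open squares of both genotypes lie between 43.5 and 51.0 CPM, below the filled circles.

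*Foxi1* (chromosome 11, 34204338 to 34208089, minus strand, GRCm38), which encodes the transcription factor that specifies intercalated cells, was at 25.6, 29.1, 31.0, and 36.5 CPM in the *c-Maf*ΔTAM mice and at 39.6, 39.1, 28.4, and 27.9 CPM in the controls. Controls 1 and 2 lay above all other mice, and controls 3 and 4 lay within the *c-Maf*ΔTAM range. The log2 fold change was -0.14 (SE 0.146, adjusted *P* = 0.725), with an interval from -0.46 to 0.18.

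The V-ATPase is built of a cytosolic sector that splits ATP and a membrane sector that carries protons, and intercalated cells use their own forms of several subunits. *Atp6v1b1* (chromosome 6, 83742990 to 83758855, plus strand), which encodes a subunit of the cytosolic sector, was at 76.2, 86.1, 93.8, and 84.8 CPM in the *c-Maf*ΔTAM mice and at 104.6, 104.9, 71.5, and 82.3 CPM in the controls. Again controls 1 and 2 were the highest of all, while control 3 was the lowest. The difference was -0.092 on the log2 scale (SE 0.125, adjusted *P* = 0.806), with an interval from -0.37 to 0.18. *Atp6v1c2* (chromosome 12, 17284721 to 17329359, minus strand), for another subunit of the cytosolic sector, also had controls 1 and 2 at the top. It was at 16.3, 19.7, 21.96, and 23.3 CPM in the *c-Maf*ΔTAM mice and at 23.5, 23.7, 18.0, and 19.9 CPM in controls (log2 fold change -0.068, SE 0.134, adjusted *P* = 0.873). *Atp6v1c2* shares 2.3% of its exonic bases with *Pdia6*.

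The other V-ATPase members did not have controls 1 and 2 at the top. *Atp6v1g3* (chromosome 1, 138273738 to 138289462, plus strand), also of the cytosolic sector, was at 30.3, 26.7, 27.0, and 20.2 CPM in the *c-Maf*ΔTAM mice and at 23.3, 24.02, 19.8, and 38.06 CPM in controls. Its highest and lowest values were both in controls, with a log2 fold change of -0.012 (SE 0.198, adjusted *P* = 0.987). *Atp6v0d2* (chromosome 4, 19876841 to 19922605, minus strand), which encodes a subunit of the membrane sector, was at 31.4, 33.0, 28.9, and 26.9 CPM in the *c-Maf*ΔTAM mice and at 30.3, 29.3, 26.6, and 24.4 CPM in controls. It had the smallest standard error of the 10 genes (log2 fold change 0.12, SE 0.102, adjusted *P* = 0.663, interval from -0.10 to 0.34).

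Among the type A genes, *Slc4a1* (chromosome 11, 102348824 to 102366203, minus strand), encoding the bicarbonate exchanger AE1, had the highest fold change of the members. It was at 61.3, 65.3, 74.9, and 62.7 CPM in the *c-Maf*ΔTAM mice and at 71.3, 57.4, 54.0, and 49.0 CPM in controls. Control 1 lay above 3 of the 4 *c-Maf*ΔTAM mice, and the other 3 controls lay below all of them. The difference of 0.19 (SE 0.116, adjusted *P* = 0.514, interval from -0.064 to 0.44) did not pass the test. *Slc26a7* (chromosome 4, 14502430 to 14621805, minus strand), a chloride-bicarbonate exchanger of type A cells in the outer medulla, was at 3.61, 3.18, 2.00, and 6.28 CPM in the *c-Maf*ΔTAM mice and at 4.71, 2.93, 2.64, and 3.64 CPM in controls. These levels rest on 36 to 116 counts, and both the lowest and the highest mouse were *c-Maf*ΔTAM. Its interval allowed a ratio of *c-Maf*ΔTAM to *c-Maf* fl/fl from 0.667 to 1.76 (log2 fold change 0.12, SE 0.320, adjusted *P* = 0.916). At this depth and spread, the data do not distinguish between ratios within that range.

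*Kit* (chromosome 5, 75574916 to 75656722, plus strand), which encodes a receptor tyrosine kinase found on type A cells, was at 19.9, 23.6, 20.4, and 28.2 CPM in the *c-Maf*ΔTAM mice and at 35.1, 26.6, 23.6, and 22.8 CPM in controls. Control 1 was the highest, and *c-Maf*ΔTAM mouse 4 was next. The log2 fold change was -0.23 (SE 0.154, adjusted *P* = 0.556, interval from -0.57 to 0.11).

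Of the type B genes, *Slc26a4* (chromosome 12, 31519827 to 31559969, minus strand), encoding pendrin, was at 43.5, 67.6, 67.7, and 67.1 CPM in the *c-Maf*ΔTAM mice and at 79.4, 80.8, 51.0, and 45.2 CPM in controls. The 3 mice with low *Xist* were the 3 lowest, controls 1 and 2 were the highest, and the other 3 *c-Maf*ΔTAM mice lay between them within 1 CPM of each other. Its log2 fold change was -0.062 (SE 0.225, adjusted *P* = 0.938, interval from -0.57 to 0.45). *Slc4a9* (chromosome 18, 36528147 to 36556273, plus strand), encoding the basolateral transporter AE4 of type B cells, was at 57.2, 81.0, 85.7, and 71.1 CPM in the *c-Maf*ΔTAM mice and at 83.1, 84.3, 66.2, and 63.6 CPM in controls. The same 3 mice were lowest, and the log2 fold change was -0.011 (SE 0.137, adjusted *P* = 0.983).

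Expressed per length of exon (RPKM), the levels in control kidneys fell into 3 tiers. *Atp6v1b1* (20.7 ± 3.80 RPKM, SD, n = 4) and *Slc26a4* (20.6 ± 5.98) had the highest means, and the ranges of neighbors from *Slc26a4* down through *Foxi1* (14.3 ± 2.75), *Atp6v1g3* (13.9 ± 4.26), *Slc4a1* (11.8 ± 1.95), *Slc4a9* (11.6 ± 1.71), *Atp6v0d2* (10.2 ± 0.984), and *Atp6v1c2* (9.78 ± 1.30) overlapped over the mice. *Kit* (3.03 ± 0.628) lay below all of these and *Slc26a7* (0.641 ± 0.169) below *Kit*, both without overlap in any of the 8 mice. The *c-Maf*ΔTAM means ran from 0.694 RPKM in *Slc26a7* to 19.8 RPKM in *Slc26a4*.

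Ratios within a library do not depend on its scaling, so the type A gene *Slc4a1* was set against the type B genes in each mouse. The RPKM ratio of *Slc4a1* to *Slc26a4* was 0.897, 0.614, 0.703, and 0.594 in *c-Maf*ΔTAM mice and 0.571, 0.452, 0.673, and 0.689 in controls. That of *Slc4a1* to *Slc4a9* was 1.40, 1.06, 1.14, and 1.15 in *c-Maf*ΔTAM mice and 1.12, 0.891, 1.07, and 1.01 in controls. Both ratios overlapped between genotypes and were highest in *c-Maf*ΔTAM mouse 1.

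The intercalated forms of V-ATPase subunits were also compared with the widespread forms of the same subunits. The RPKM ratio of *Atp6v1b1* to *Atp6v1b2* ran from 0.340 to 0.466 in *c-Maf*ΔTAM mice and from 0.297 to 0.564 in controls. That of *Atp6v1c2* to *Atp6v1c1* ran from 0.519 to 0.701 and from 0.604 to 0.969, that of *Atp6v1g3* to *Atp6v1g1* from 0.641 to 0.858 and from 0.373 to 0.822, and that of *Atp6v0d2* to *Atp6v0d1* from 0.261 to 0.296 and from 0.209 to 0.289, in the same order of genotypes. In each of the 4 pairs the widespread form was the higher in every mouse, and the genotypes overlapped.

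**Figure D2:**
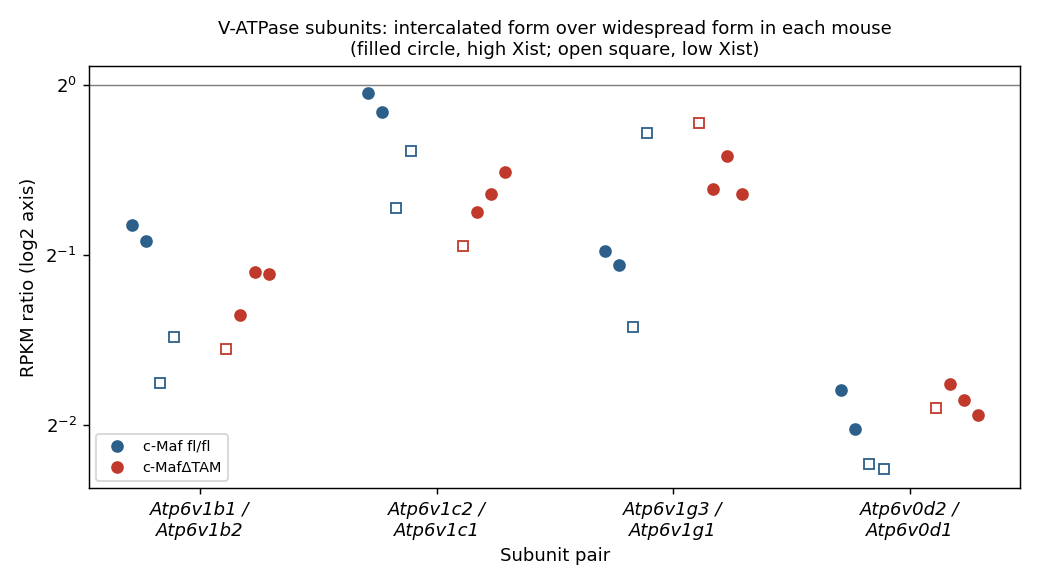
RPKM ratio of the intercalated form to the widespread form of 4 V-ATPase subunits in each mouse, on a log2 axis, with the grey line at equal levels (blue, *c-Maf* fl/fl controls; red, *c-Maf*ΔTAM; filled circles, high *Xist*; open squares, low *Xist*). All 8 mice lie below the line in every pair, up to 0.969 for *Atp6v1c2* over *Atp6v1c1*, and the genotypes overlap in each pair.

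Mice of the same genotype differed among themselves, and the lowest values lay mostly in the 3 mice with low *Xist*. *c-Maf*ΔTAM mouse 1 was the lowest of all 8 mice in 5 of the 10 genes (*Foxi1*, *Atp6v1c2*, *Kit*, *Slc4a9*, and *Slc26a4*), and controls 3 and 4 were each the lowest in 2. The same *c-Maf*ΔTAM mouse was the lowest in 19.4% of all tested genes, in 5 of 22 other intercalated cell genes, 4 of 11 principal cell genes, 4 of 10 distal convoluted tubule genes, and 5 of 8 kidney genes. It was the lowest in 1 of 19 other V-ATPase subunit genes, 1 of 9 macrophage genes, 1 of 7 erythroid genes, and 0 of 3 mast cell genes. In collecting duct fate genes it was the lowest in 5 of 15, and in liver genes in 4 of 6. The mean log2 deviation of the 10 genes from their average over the mice was -0.16, 0.025, -0.015, and 0.11 in the *c-Maf*ΔTAM mice and 0.24, 0.11, -0.22, and -0.099 in the controls.

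**Figure D3:**
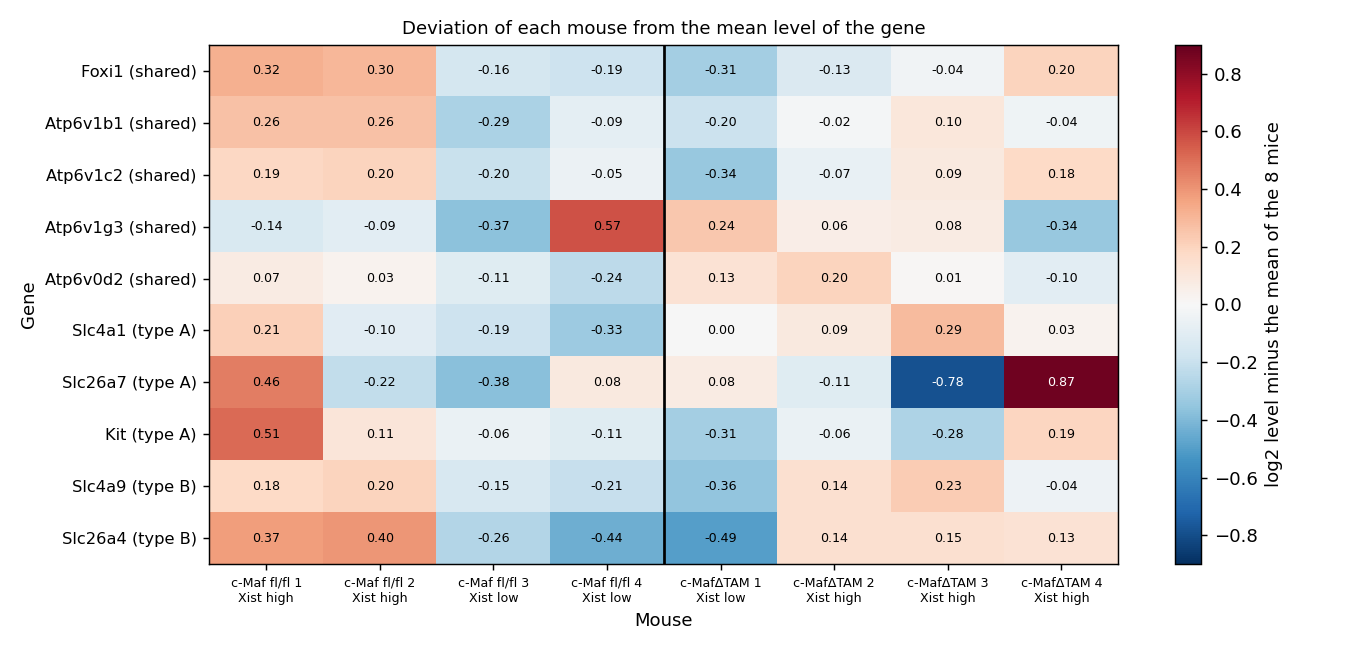
Deviation of each mouse from the average level of the gene over the 8 mice, on the log2 scale, for the 10 intercalated cell genes (rows) with controls on the left and *c-Maf*ΔTAM mice on the right of the black line. Red is above and blue below the average; control 1 (mean deviation 0.24) is red in 9 of the genes, and control 3 (-0.22) is blue in all 10.

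Within the controls, where genotype does not vary, both mice with low *Xist* lay below both mice with high *Xist* in 8 of the 10 members, the exceptions being *Atp6v1g3* and *Slc26a7*. The same order held for 25.3% of all tested genes, for 15 of 22 other intercalated cell genes, 7 of 11 principal cell genes, 5 of 10 distal convoluted tubule genes, and 0 of 19 other V-ATPase subunit genes. With 2 mice a side this is a description. The share of mitochondrial counts was 17.1% and 18.7% in controls 1 and 2 and 18.7% and 25.5% in controls 3 and 4. Other properties of these mice were not tested.

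Because 1 of the 4 *c-Maf*ΔTAM mice and 2 of the 4 controls had low *Xist*, the genotypes were compared again with *Xist* (log2 level) as a covariate, and among the 5 mice with high *Xist* alone. With the covariate, 0 of the 10 members passed the adjusted threshold, against 7.15% of all tested genes, and 3 had an unadjusted *P* under 0.05, against 20.8% of all tested genes. These were *Foxi1* (log2 fold change -0.22, SE 0.092, adjusted *P* = 0.168), *Kit* (-0.30, SE 0.117, adjusted *P* = 0.148), and *Slc26a4* (-0.20, SE 0.075, adjusted *P* = 0.138). Without the 3 low-*Xist* mice, 0 of the 10 passed, against 3.75% of the genes tested there. The same 3 genes and *Atp6v1b1* had an unadjusted *P* under 0.05 (15.1% of the genes tested there), with log2 fold changes of -0.29 in *Foxi1* (adjusted *P* = 0.207), -0.36 in *Kit* (adjusted *P* = 0.290), -0.25 in *Slc26a4* (adjusted *P* = 0.118), and -0.25 in *Atp6v1b1* (adjusted *P* = 0.131). In these 5 mice, the intervals for *Kit* and *Slc26a7* reached beyond a 1.5-fold change.

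All 3 *c-Maf*ΔTAM mice with high *Xist* lay below both controls with high *Xist* in 4 of the 10 members (*Foxi1*, *Atp6v1b1*, *Atp6v1c2*, and *Slc26a4*), an order found in 16.6% of all tested genes. It also held in 5 of 22 other intercalated cell genes, 3 of 11 principal cell genes, and 3 of 10 distal convoluted tubule genes. Of other V-ATPase subunit genes it held in 3 of 19, and of macrophage genes in 0 of 9.

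**Figure D4:**
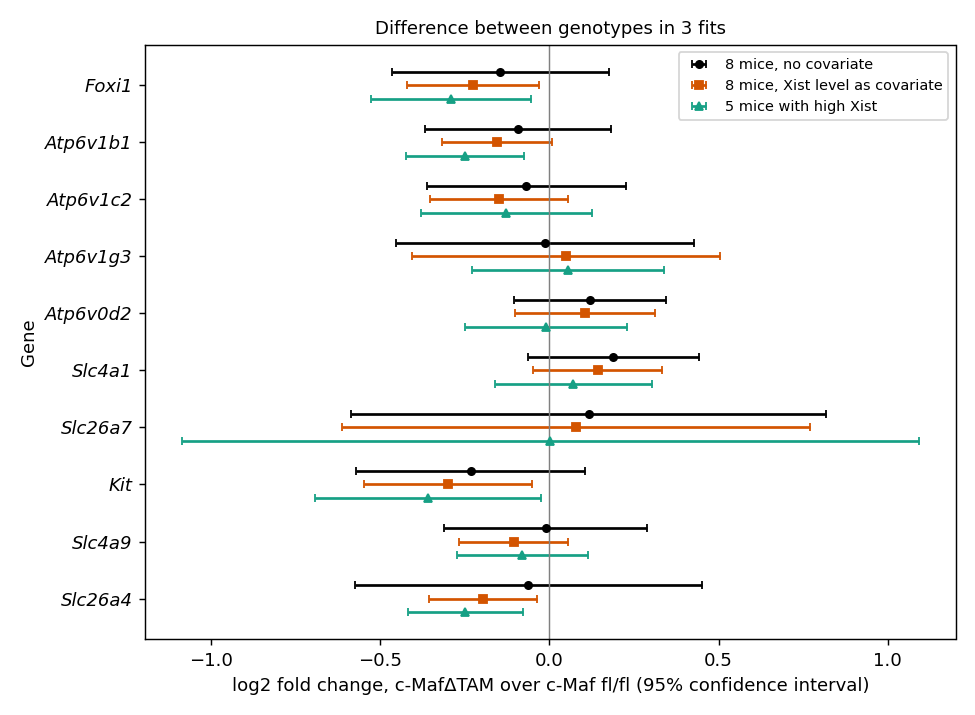
Log2 fold change of each intercalated cell gene between genotypes (*c-Maf*ΔTAM over *c-Maf* fl/fl) with its 95% confidence interval, from all 8 mice (black circles), from all 8 with a term for *Xist* (orange squares), and from the 5 high-*Xist* mice (green triangles). All black intervals cross zero; with the covariate those of *Foxi1*, *Kit*, and *Slc26a4* lie below zero, and in the 5 mice that of *Atp6v1b1* does too, none with an adjusted *P* under 0.05.

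The other genes of intercalated cells and of the V-ATPase were taken from lists. Of 22 other intercalated cell genes, 0 were called in either direction by edgeR's quasi-likelihood test (median log2 fold change 0.066, 12 above and 10 below zero). In 1 gene the unadjusted *P* was under 0.05, against 14% of all tested genes. That gene was *Car12*, a membrane carbonic anhydrase. It was at 193.1, 199.4, 194.1, and 154.0 CPM in the *c-Maf*ΔTAM mice and at 246.8, 258.4, 239.9, and 231.7 CPM in controls, without overlap. Its log2 fold change was -0.40 (SE 0.097, adjusted *P* = 0.0608), and in the 5 mice with high *Xist* the change was -0.47 (adjusted *P* = 0.0181). DESeq2 called it as well (adjusted *P* = 0.00616), and over all alternatives its adjusted *P* ran up to 0.209. With *Xist* as a covariate, 3 of the 22 were called lower and 0 higher, against 880 lower and 561 higher of all 20149 tested genes. The 3 were *Car12* (-0.40, adjusted *P* = 0.00766), the carbonic anhydrase gene *Car2* (-0.35, adjusted *P* = 0.0271, against -0.24 and 0.475 without the covariate), and *Tmem213* (-0.31, adjusted *P* = 0.0482, against -0.21 and 0.547). *Car2* and *Tmem213* were chosen after their values were seen. Mean control levels were 32.1 RPKM for *Car12*, 107.7 for *Car2*, and 52.5 for *Tmem213*, beside 20.7 for *Atp6v1b1*, the highest member. The part of other kidney cells in the levels of these 3 genes was not tested. Without the covariate, the next genes by *P* were the adhesion receptor gene *Adgrf5* (0.19, adjusted *P* = 0.396) and *Atp6v0a4*, for a membrane-sector V-ATPase subunit (0.15, adjusted *P* = 0.471).

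Of 19 tested genes for other V-ATPase subunits, 1 was called lower and 0 higher (median -0.021). With upper-quartile factors or quantile normalization, 0 were called lower and 1 higher. With *Xist* as a covariate 1 was called lower and 2 higher, in a fit that called 7.15% of all tested genes. *Atp6v1c1*, the widespread counterpart of *Atp6v1c2*, was chosen after its values were seen; it was at 80.9 to 88.3 CPM in the *c-Maf*ΔTAM mice and 62.5 to 76.6 CPM in controls (0.31, SE 0.0819, adjusted *P* = 0.0853), without overlap. *Atp6v1g1*, the widespread counterpart of *Atp6v1g3*, was at 21.3, 24.5, 21.7, and 18.9 CPM in the *c-Maf*ΔTAM mice and at 27.6, 30.1, 32.0, and 27.9 CPM in controls (log2 fold change -0.44, SE 0.102, adjusted *P* = 0.0469). The call held in 1 of 8 fits that each left out a mouse, that without *c-Maf*ΔTAM mouse 2, and the other 7 gave adjusted *P* values of up to 0.142; it held in 6 of 11 other alternatives.

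The neighboring cells of the distal nephron gave few calls. Among 11 tested principal cell genes 0 were called in either direction by edgeR, with 0 at an unadjusted *P* under 0.05, and the water channel gene *Aqp2* was at 142.1 to 229.7 CPM in the *c-Maf*ΔTAM mice and 121.3 to 229.6 CPM in controls. The principal cell genes with the smallest *P* values were *Scnn1a*, a subunit of the epithelial sodium channel (0.17, adjusted *P* = 0.619), *Fxyd4* (-0.44, adjusted *P* = 0.558), and the transcription factor gene *Elf5* (0.64, adjusted *P* = 0.568). Of 15 genes tied to the choice between intercalated and principal cells, among them *Foxi1*, the Notch ligand gene *Dll1* was the 1 called, and lower. It was at 11.9, 10.2, 13.9, and 12.5 CPM in the *c-Maf*ΔTAM mice and at 17.1, 19.4, 18.9, and 15.5 CPM in controls (log2 fold change -0.55, SE 0.124, adjusted *P* = 0.0449), and it passed in 0 of 8 fits with a mouse left out (adjusted *P* from 0.0514 to 0.149) and in 8 of 11 other alternatives. In 10 distal convoluted tubule genes 0 were called by edgeR's quasi-likelihood test, with 3 at an unadjusted *P* under 0.05, against 14% of all tested genes. These were the sodium-calcium exchanger gene *Slc8a1* (0.56, adjusted *P* = 0.0515), the calcium-binding protein gene *Pvalb* (-0.84, adjusted *P* = 0.126), and the calcium channel gene *Trpv5* (-0.48, adjusted *P* = 0.278), which passed with *Xist* as a covariate (-0.61, adjusted *P* = 0.00401).

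**Figure D5:**
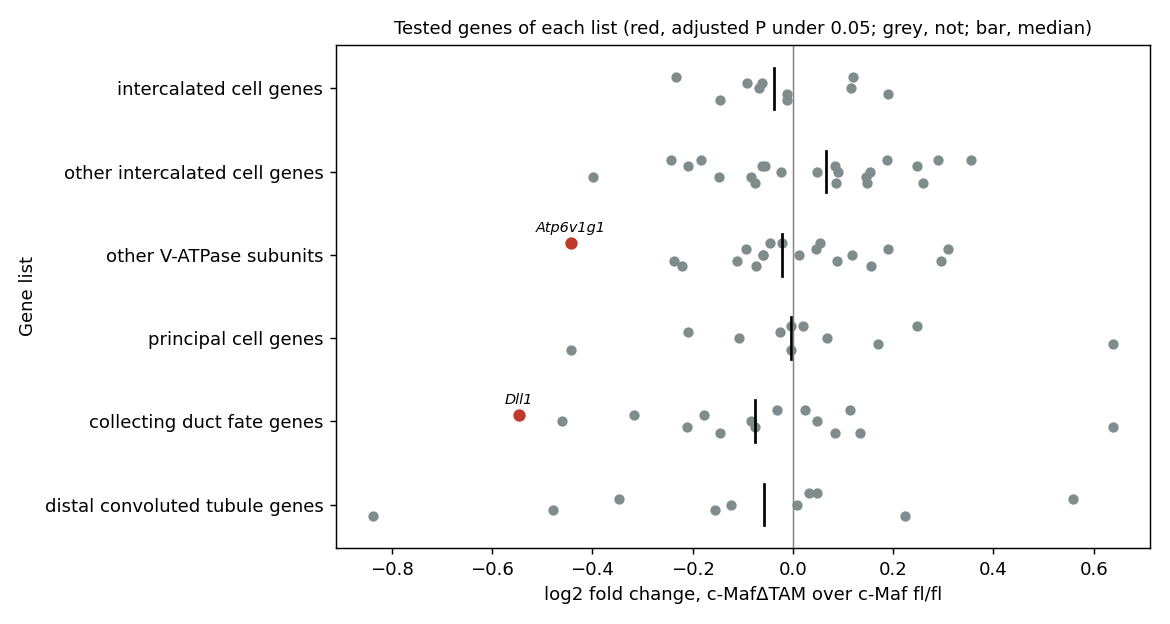
Log2 fold change between genotypes (*c-Maf*ΔTAM over *c-Maf* fl/fl) of each tested gene in the intercalated cell genes and 5 other lists, with a bar at the median of each list. Red points passed an adjusted *P* of 0.05; they are *Atp6v1g1* (-0.44) and *Dll1* (-0.55), and no intercalated cell gene is red.

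Red cells also make *Slc4a1*, mast cells *Kit*, and macrophages *Atp6v0d2*, so markers of these cells stand beside them. Of 13 erythroid genes 7 were tested and 0 called, with 1 at an unadjusted *P* under 0.05, against 14% of all tested genes. The summed level of the erythroid genes was 192.6 to 289.4 CPM in the *c-Maf*ΔTAM mice and 209.5 to 353.2 CPM in controls. The erythroid genes with the smallest *P* values were *Hba-a2* (-0.36, adjusted *P* = 0.327), *Hba-a1* (-0.32, adjusted *P* = 0.508), and *Klf1* (-0.53, adjusted *P* = 0.395). Of 9 mast cell genes 3 were tested and 0 called, with 1 at an unadjusted *P* under 0.05, and their summed level was 35.4 to 194.1 CPM in the *c-Maf*ΔTAM mice and 27.4 to 54.3 CPM in controls. Of the 6 not tested, *Cpa3*, *Mcpt4*, *Tpsab1*, and *Fcer1a* had 0 counts in all 8 mice, *Cma1* had at most 2 counts, and *Tpsb2* had at most 4, while *Ms4a2*, which was tested, was at most 0.883 CPM (0.27, adjusted *P* = 0.897). *Gata2*, which tubule cells also express, had a log2 fold change of -0.11 (adjusted *P* = 0.827). Of the mast cell list, *Hdc* (histidine decarboxylase) was at 9.26, 133.5, 160.3, and 139.8 CPM in the *c-Maf*ΔTAM mice and at 10.1, 12.01, 5.38, and 3.52 CPM in controls (log2 fold change 3.83, SE 0.931, adjusted *P* = 0.128). *c-Maf*ΔTAM mouse 1, whose *Xist* was low, stood apart from the other 3, and without it the adjusted *P* was 0.00694; over all alternatives it ran from 3.03e-10 to 0.494. The summed level of 10 macrophage genes was 125.9 to 138.5 CPM in the *c-Maf*ΔTAM mice and 121.3 to 138.2 CPM in controls; 9 were tested and 0 called, with 2 at an unadjusted *P* under 0.05. *Csf1r* (0.17, adjusted *P* = 0.351), *Cx3cr1* (0.53, adjusted *P* = 0.214), and *Adgre1* (0.31, adjusted *P* = 0.493) had the smallest *P* values. The part of these other cells in the levels of *Slc4a1*, *Kit*, and *Atp6v0d2* was not tested.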

How the data were processed

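All 8 mice of the series, 4 of each genotype, were grouped by GEO's genotype labels, with 1 RNA-Seq library of whole kidney per mouse. The authors deposited unnormalized read counts per gene name, assigned by featureCounts (2.0.1 in the file header; Subread 2.0.2 in the submitters' processing notes) on exons of Ensembl release 102, GRCm38. The authors counted each read of a pair separately, without strand, and left out reads on more than 1 gene; the sources used here do not tie an aligner to these counts (the paper's methods describe mapping to mm10 in CLC Genomics Workbench, a separate route from the deposited table), and 0 columns of per-sample values were unused. Totals ran from 16649129 to 22990257 counts, and every pair of mice of a genotype differed beyond sampling noise.

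Genes were kept by edgeR's filterByExpr, libraries scaled by TMM, and genotypes compared with edgeR's robust quasi-likelihood test without covariates (R 4.3.3, edgeR 4.0.16), with Benjamini-Hochberg adjustment over all 20149 genes tested at 0.05. Standard errors were taken from the log2 fold change and the F statistic (absolute change over root F). A prior count of 2 entered the log2 levels of the limma-trend fit and of the check on replicate numbers. Log2 deviations and ratios used no prior count, and the *Xist* covariate was the log2 of CPM plus 1. CPM values are TMM-normalized, and RPKM values divide them by the exon length in the deposited file. The settings varied were the scaling (RLE, upper quartile, or quantile normalization followed by limma-trend, limma 3.58.1), the test (DESeq2 1.42.0 or edgeR's exact test), the filter (at least 1 count in any mouse or 10 in every mouse), a block for replicate number, *Xist* as a covariate, the 5 mice with over 1000 *Xist* counts, removal of mitochondrial and ribosomal RNA genes, an adjusted *P* of 0.01, and each mouse left out. The scripts were tested on simulated counts. Figures were drawn with matplotlib 3.10.9 (Python 3.11.15). Genes with near-identical copies were checked with 36-base sequences: members shared at most 0.642% of theirs.

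The members and gene lists were chosen with earlier results of these data known. Genes were named by a rule: *Maf*, all 10 members, every called gene of the other lists or, where 0 or more than 6 passed, the 3 with the smallest *P*, and defining markers of erythroid, mast, and macrophage cells; *Aqp2*, *Atp6v1c1*, and the remaining kidney, liver, and mast cell genes were added after their values were seen. *P* values weigh the difference between genotypes against the spread between the mice sampled, which the fits moderate over genes.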

Additional observations from a re-analysis of the deposited data

Results flagged for a closer look

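Among 66 sets of 4 mice (each named gene in each genotype), 5 held a mouse whose gap to the nearest other mouse, relative to the range of the set, exceeded Dixon's 95% critical value; chance gives about 3.3. In *c-Maf*ΔTAM mouse 1, *Slc26a4* had 43.5 CPM against 67.1 to 67.7 CPM in the other 3 (gap over range 0.974), and without this mouse its log2 fold change was 0.075 in place of -0.062. In *c-Maf*ΔTAM mouse 4, *Car12* had 154.0 CPM against 193.1 to 199.4 CPM (0.862). In *c-Maf*ΔTAM mouse 3, *Pvalb* had 9.26 CPM against 3.95 to 4.83 CPM (0.835), and without this mouse its adjusted *P* was 0.00649. In control 2, *Csf1r* had 58.0 CPM against 52.7 to 53.5 CPM (0.848). In control 3, *Ttr* had 67.8 CPM against 31.5 to 33.5 CPM (0.943).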

How the results depend on the processing

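The members called numbered 0 in each direction under all alternatives run. The fold changes of *Foxi1*, *Atp6v1b1*, *Kit*, and *Slc4a1* kept their direction in all of them, with each mouse left out between -0.24 and -0.059, -0.19 and -0.016, -0.34 and -0.083, and 0.12 and 0.30. The other 6 members changed sign under some alternatives, none with a call, and the cause was not tested: *Atp6v1g3* with upper-quartile factors (0.036), quantile normalization (0.049), *Xist* as a covariate (0.049), and the 5 mice with high *Xist* (0.056); *Atp6v0d2* in those 5 mice (-0.011); *Slc26a7* (-0.018) and *Slc26a4* (0.014) with quantile normalization; and *Slc4a9* with upper-quartile factors and quantile normalization (0.030 and 0.029). *Ms4a2* was -0.50 in the 5 mice with high *Xist*. With each mouse left out, *Atp6v1g3* ran from -0.12 to 0.22, *Atp6v1c2* from -0.14 to 0.027, *Slc26a7* from -0.24 to 0.32, *Slc4a9* from -0.091 to 0.095, *Slc26a4* from -0.19 to 0.075, *Gata2* from -0.24 to 0.039, and *Ms4a2* from -0.10 to 0.77. Other intercalated cell genes called lower numbered 1 with DESeq2, 1 with at least 1 count in any mouse, 3 with *Xist* as a covariate, and 1 in the 5 mice with high *Xist*, against 0. Of the 11 alternatives that kept every mouse or only the 5, *Dll1* passed in 8, *Slc8a1* in 7, *Atp6v1g1* in 6, *Car12* and *Hdc* in 4 each, *Pvalb* in 1 (DESeq2, adjusted *P* = 0.0319), and *Trpv5* in 1 (*Xist* as a covariate). *Maf* was -3.87 in the 5 mice with high *Xist* (adjusted *P* = 0.108). Genes called over the whole table numbered 318 lower and 118 higher, against 562 and 284 with DESeq2, 424 and 252 with edgeR's exact test, 880 and 561 with *Xist* as a covariate, 467 and 322 in the 5 mice, 144 and 36 at an adjusted *P* of 0.01, and, among the fits with a mouse left out, 198 and 58 when *c-Maf*ΔTAM mouse 2 was left out, 188 and 51 for mouse 3 of that genotype, 227 and 74 for control 2, and 207 and 78 for control 3.

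Deviations from the genotype means correlated by -0.37, 0.15, -0.11, and -0.33 between the mice that share numbers 1 to 4. Mice with unlike numbers were not compared, and those numbered 1, 3, and 4 differed between genotypes in *Xist*. Whether replicate numbers pair the mice cannot be told from these values. With the replicate number as a block, 0 members, 111 lower, and 18 higher genes were called, *Atp6v1g3* was at 0.021, and the calls of *Maf* (-4.28, adjusted *P* = 0.0516), *Ttr* (adjusted *P* = 0.0635), *Atp6v1g1* (0.163), and *Dll1* (0.206) were lost.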
